A study of Mus musculus with 4 samples.

Results

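Natural killer (NK) cells from subcutaneous mouse tumours are described here. They were the cells that the authors' deposited annotation placed in its NK class, 197 of 4440 sorted CD45+ cells. MC38 colon carcinoma cells had been injected in the flank of IL-12p40-IRES-EYFP mice, which carry a yellow fluorescent reporter of the interleukin-12 p40 chain, and tumours grew for 7 days. Treated mice received 5 mg/kg of an agonist anti-CD40 monoclonal antibody intraperitoneally, and the untreated mouse received none. Tumours were taken 2 days later, digested with enzymes and labelled with 7AAD, a dye that enters dead cells, and sorted CD45+ cells were encapsulated by inDrops, a droplet method in which each captured polyA RNA molecule carries a unique molecular identifier (UMI). There were 28 NK cells from anti-CD40 tumour 1, 128 from anti-CD40 tumour 2 and 41 from the untreated tumour. All mice carried the reporter, and no source used here gives their strain, sex or age.

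NK cells are innate lymphocytes that kill stressed, infected or transformed cells by releasing perforin and granzymes. They sense their targets through activating receptors such as NKG2D and NKp46 and are held back by inhibitory receptors, many of them Ly49 and lectin-like proteins that bind MHC class I. Interleukin-12, made by dendritic cells and macrophages after CD40 engagement, and interleukin-18 induce interferon gamma in NK cells, and chemokines from NK cells recruit dendritic cells.

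The NK cells gave 38697 UMIs in anti-CD40 tumour 1, 122216 in anti-CD40 tumour 2 and 23315 in the untreated tumour. The median depth was 1230 and 832.5 UMIs per cell in treated and 500 in untreated NK cells. No cell barcode was shared between libraries. Anti-CD40 tumour 1 and the untreated tumour were sequenced side by side in pools 1 and 2, while anti-CD40 tumour 2 filled pools 3 and 4. Each tumour was spread over 4 libraries, which were treated as technical parts of it. Levels, written as CPM, are UMIs over all NK cells of a tumour scaled to a total of 1000000, and they are compared between cells for a gene, not between genes. Because cell types are named from the expression of these cells, levels against other cell types are descriptions without a test.

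The class carried the markers that NK cells are named by, which the naming itself makes high and which are given as a check of the label only. Gzma, which encodes granzyme A, reached 12378 and 6783 CPM in treated NK cells and 4289 CPM in untreated NK cells, against 462 and 65.4 CPM in treated T cells and 157 CPM in untreated T cells. Klrb1c (NK1.1) stood at 1059.5 and 949 CPM in treated and 515 CPM in untreated NK cells. In T cells Klrb1c was found in anti-CD40 tumour 2 alone, at 28 CPM. Ncr1 (NKp46) had 439 and 286 CPM in treated and 129 CPM in untreated NK cells, where it rested on 3 UMIs, and no UMI in any T cell. Nkg7, a granule protein gene, was also present in T cells. It stood at 3127 and 2970.2 CPM in treated and 1844 CPM in untreated NK cells, against 762 and 776 CPM in treated and 823 CPM in untreated T cells.

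A Gzma UMI was seen in 75.0% and 68.0% of treated NK cells and in 65.9% of untreated NK cells, or in 77.8% and 56.6% of treated and 54.3% of untreated NK cells thinned to 300 UMIs each. Among monocytes, macrophages and dendritic cells, a class that should lack the gene, the shares were 0% and 0.301% in treated tumours and 0.880% in the untreated tumour, at median depths of 1058.5, 921.5 and 425 UMIs. This background, which free RNA in the droplets can give, lay far below the NK share.

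Markers of other cells were mostly low or at 0, but the macrophage and monocyte markers were not in untreated NK cells. Of 9 T cell markers, Cd3e and Cd4 had no UMI in the NK cells of any tumour, while their summed level was 982 and 1096 CPM in treated and 1158 CPM in untreated NK cells, against 5704 and 5336 CPM in treated and 4519 CPM in untreated T cells. Most of the sum came from Trbc1 and Trbc2, whose transcripts NK cells are known to carry without a rearranged receptor chain. The 2 gamma delta T cell markers measured did not set NK cells apart from T cells. They gave 129 and 90.0 CPM in treated and 85.8 CPM in untreated NK cells, against 92.4 and 131 CPM in treated and 78.4 CPM in untreated T cells. ILC2 markers gave 284 and 147 CPM in treated and 172 CPM in untreated NK cells, against 485 and 374 CPM in treated and 313 CPM in untreated T cells. The 4 B cell and 3 basophil markers had no UMI. The 4 neutrophil markers gave 25.8 and 114.5 CPM in treated NK cells and no UMI in untreated NK cells. The 6 macrophage and monocyte markers (C1qa, C1qb, C1qc, Apoe, Lyz2 and Csf1r) went the other way, with 51.7 and 139 CPM in treated NK cells and 1716 CPM in untreated NK cells. In anti-CD40 tumour 1 all of them but Lyz2 were at 0, in anti-CD40 tumour 2 C1qc and Csf1r were at 0, and in the untreated tumour none was. T cells showed the same difference, with 138.6 and 187 CPM in treated and 3004 CPM in untreated T cells. ILC1 markers (Cxcr6, Itga1, Il7r and Tmem176b) were sparse, at 181 and 155.5 CPM in treated and 300.2 CPM in untreated NK cells, with Il7r at 0 in anti-CD40 tumour 1 and in the untreated tumour.

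By the level rule, 23 genes were at least 4-fold (2 on the log2 scale, with a prior of 50 CPM) above the highest of T cells, neutrophils, B cells and the class of monocytes, macrophages and dendritic cells. They also lay above each of these classes in every tumour with at least 20 cells of the class. For B cells that was the untreated tumour alone. The rule also asked for at least 30 UMIs in NK cells and at least 1 in each tumour, so in a single tumour it could rest on 1 UMI. The 23 genes fell into a few known groups. Those of killing were the granzyme genes Gzma, Gzmc, Gzmd and Gzmf, the pore-forming Prf1, and the granzyme inhibitor gene Serpinb9 with its relative Serpinb9b. The mean levels of Gzmd and Gzmf rested mainly on the untreated tumour, with 48 and 98 UMIs. In anti-CD40 tumour 1 they had 2 and 1 UMIs, and in anti-CD40 tumour 2 they had 10 and 35. Serpinb9b, and Ifng named below, had 1 UMI each in untreated NK cells. Prf1 stood at 1886 and 2013 CPM in treated and 901 CPM in untreated NK cells, against 23.1 and 122 CPM in treated and 26.1 CPM in untreated T cells. The log2 ratio of the mean NK level to the highest other class was 4.82 for Gzma, 3.74 for Prf1 and 2.59 for Serpinb9.

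Lectin-like receptors formed the largest group of the 23: Klrb1b, Klrb1c, Klre1, Klri2, Klrk1, Klra4, Klra7 and Klra8. Klrk1, which encodes the activating receptor NKG2D, stood at 672 and 859 CPM in treated and 729 CPM in untreated NK cells, so that the untreated tumour lay between the treated ones. Klrb1b, an inhibitory receptor gene, had 672 and 1064 CPM in treated and 1072 CPM in untreated NK cells. The Klra genes encode Ly49 receptors that resemble each other closely, so counts may have been split between them. Klra4 had 569 and 417 CPM in treated and 343 CPM in untreated NK cells, against at most 9.35 CPM in T cells.

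The remaining genes of the rule were Ncr1, the transcription factor gene Eomes, the survival gene Bcl2, the kinase gene Pim2, the secreted factors Xcl1 and Ifng, Car2 (carbonic anhydrase 2) and Ugcg (ceramide glucosyltransferase). Eomes, which separates NK cells from ILC1, had 181 and 237 CPM in treated and 343 CPM in untreated NK cells. Bcl2 had 749 and 1162 CPM in treated NK cells, below the 1501 CPM of untreated NK cells, against values between 92.4 and 169.8 CPM in T cells. Xcl1, a chemokine that draws cross-presenting dendritic cells, had 1137 and 638 CPM in treated and 986 CPM in untreated NK cells, against 69.3 and 93.5 CPM in treated and 169.8 CPM in untreated T cells. With each cell thinned to 300 UMIs, 12 genes met the rule, 11 of them among the 23.

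**Figure D1:**
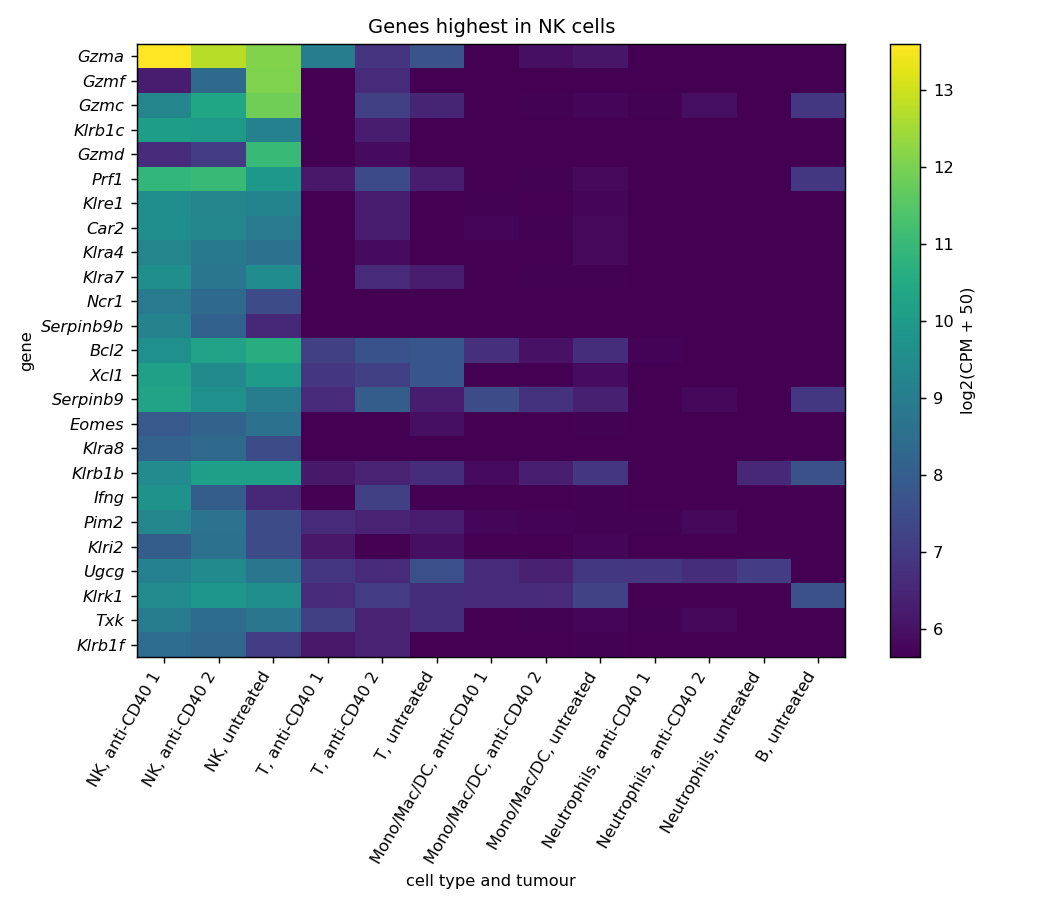
Levels of the 25 genes with the highest ratio of NK cells to any other class (rows), as log2(CPM + 50), in each cell type and tumour with at least 20 cells (columns; NK cells on the left, then T cells, the class of monocytes, macrophages and dendritic cells, neutrophils and B cells). Gzma is bright in all 3 NK columns, while Gzmd and Gzmf are bright in untreated NK cells alone, at 2059 and 4203 CPM.

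Against T cells alone, NK cells stood apart by Fcer1g, the gene of a signalling adaptor of activating receptors, besides genes already named. Fcer1g had 2067 and 1972 CPM in treated and 3174 CPM in untreated NK cells, against 23.1 and 206 CPM in treated and 313 CPM in untreated T cells. Gzmb, by contrast, was shared: NK cells had 6409 and 4533 CPM in treated and 3131 CPM in untreated tumours, against 4965 and 5289.8 CPM in treated and 5068 CPM in untreated T cells. Genes most depleted in NK cells relative to T cells were Ifi27l2a, the co-stimulatory receptor genes Tnfrsf4 and Icos, the T cell receptor genes Trac and Cd3d, and the regulatory T cell genes Foxp3, Ikzf2, Izumo1r and Ctla4, with Cd4, Cd6 and Gm2a. Foxp3, Cd4, Cd6 and Izumo1r had no UMI in the NK cells of any tumour. Ctla4 was low but present, at 207 and 155 CPM in treated and 85.8 CPM in untreated NK cells, against 2379 and 2056 CPM in treated and 888 CPM in untreated T cells.

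NK cells made up 2.28% of CD45+ cells in anti-CD40 tumour 1 (exact Clopper-Pearson 95% interval 1.52 to 3.28) and 7.05% in anti-CD40 tumour 2 (5.92 to 8.33), against 2.93% in the untreated tumour (2.11 to 3.95). These intervals cover counting error only. Neutrophils took a large and unequal share of the treated tumours, so the share among the other cells was also taken. It was 5.32% (3.57 to 7.60) and 8.0% (6.72 to 9.44) in the treated tumours, against 3.04% (2.19 to 4.10) in the untreated tumour. By library, this share lay between 4.93% and 8.43% in the 8 treated libraries, above the 2.32% to 4.52% of the 4 untreated libraries, without overlap. The share of all CD45+ cells did overlap, at 2.20% to 7.43% in treated and 2.26% to 4.34% in untreated libraries. With 1 untreated tumour no test of shares was made.

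Set against T cells, NK cells numbered 58.3 and 94.8 per 100 T cells in treated tumours and 27.3 in the untreated tumour. The libraries ran from 40 to 109.7 in treated and from 20 to 44.4 in untreated tumours, so the ranges overlapped. Within pool 1 the ratio was 70.6 in anti-CD40 tumour 1 and 35.2 in the untreated tumour, and within pool 2 it was 51.6 in anti-CD40 tumour 1 and 20.3 in the untreated tumour. These are proportions of sorted cells, and more NK cells cannot be told apart from fewer T cells.

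**Figure D2:**
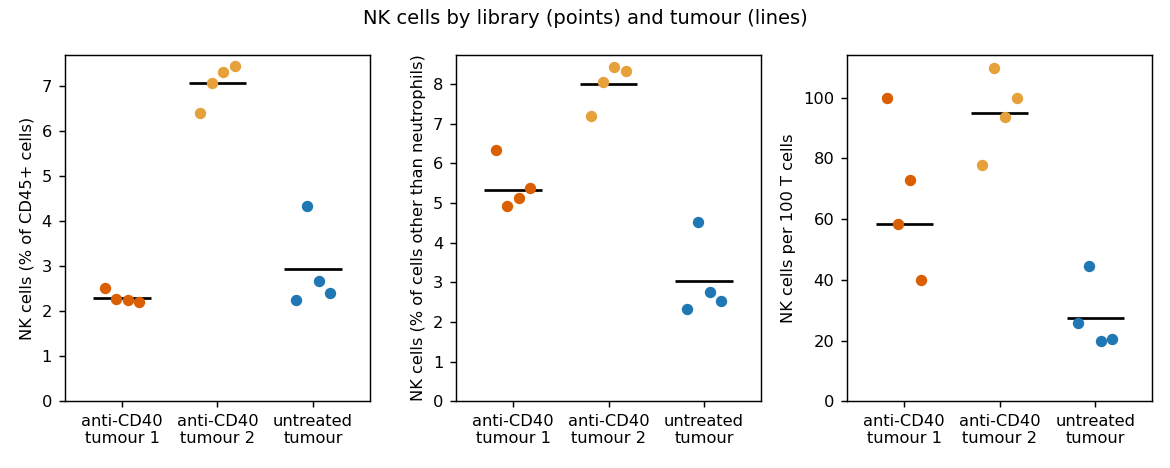
NK cells as a percentage of CD45+ cells (left), as a percentage of cells other than neutrophils (middle) and per 100 T cells (right), by tumour. Each point is a library and each black line the tumour's pooled value; in the middle panel all 8 treated libraries lie above all 4 untreated libraries, which reach 4.52%.

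The effect of anti-CD40 on NK cells was tested on UMIs summed per tumour with edgeR's quasi-likelihood test and Benjamini-Hochberg adjustment over 794 genes. At an adjusted p under 0.05, 15 genes passed (1.89%), 8 of them higher (1.01%) and 7 lower (0.882%) in treated NK cells. In order of p, those that fell were Gzmd, Gzmf, Ifitm2, Lgals3, Gzmc, S100a11 and Ptms. Those that rose were Klf2, Bhlhe40, Snu13, Cytip, Cd69, Cxcr4, Rbbp4 and H3f3b, in the same order. The median log2 change of all genes tested was 0.05. The filter on low counts kept a gene that reached its cut in 1 tumour, so some genes were tested only because 1 group was high. Klf2, Snu13, Cd69 and Rbbp4, with no UMI in untreated NK cells, entered through treated tumours, and Gzmd and Ifitm2 entered through the untreated tumour. With 1 untreated tumour the fit has 1 residual degree of freedom, its p-values rest on a variance shared over genes, and the single untreated tumour is taken to scatter as much as treated ones do. The count depended on the tool and the libraries: DESeq2 called 1 gene, Gzmd, and edgeR called 2 genes without pool 1, 1 without pool 2 and 6 without pool 4. Of the 15, Gzmd and Gzmf still passed without pool 1, Gzmf without pool 2, and Gzmd, Gzmf, Ifitm2, Klf2 and Bhlhe40 without pool 4.

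Granzymes C, D, E and F are encoded next to each other on chromosome 14, in a cluster with Gzmb, and unlike Gzmb they are known to be made late after strong stimulation of mouse lymphocytes. The promoters of Gzmc, Gzmd and Gzmf are shown because these genes fell in treated NK cells, beside that of Gzmb, which did not pass. The sequences are from RefSeq (GRCm38.p6), each 250 bases before to 50 bases after the gene's start, on the minus strand at chr14:56234608-56234907 (Gzmc), chr14:56132544-56132843 (Gzmd), chr14:56211358-56211657 (Gzmf) and chr14:56262285-56262584 (Gzmb). Capitals mark matches, on either strand, to the RUNX motif TGTGGT and the AP-1 motif TGANTCA.
Gzmc: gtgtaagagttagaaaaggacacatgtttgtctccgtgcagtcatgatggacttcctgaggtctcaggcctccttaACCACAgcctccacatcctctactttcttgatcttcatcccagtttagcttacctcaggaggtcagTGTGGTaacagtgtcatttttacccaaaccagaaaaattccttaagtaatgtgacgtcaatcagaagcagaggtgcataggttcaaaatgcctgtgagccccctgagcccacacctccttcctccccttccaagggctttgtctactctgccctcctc
Gzmd: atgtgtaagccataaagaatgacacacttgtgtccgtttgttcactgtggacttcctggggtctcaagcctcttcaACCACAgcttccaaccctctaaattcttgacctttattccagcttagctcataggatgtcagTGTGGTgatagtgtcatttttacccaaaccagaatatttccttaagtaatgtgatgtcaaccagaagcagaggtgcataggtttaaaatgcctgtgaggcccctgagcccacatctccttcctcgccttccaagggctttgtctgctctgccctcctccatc
Gzmf: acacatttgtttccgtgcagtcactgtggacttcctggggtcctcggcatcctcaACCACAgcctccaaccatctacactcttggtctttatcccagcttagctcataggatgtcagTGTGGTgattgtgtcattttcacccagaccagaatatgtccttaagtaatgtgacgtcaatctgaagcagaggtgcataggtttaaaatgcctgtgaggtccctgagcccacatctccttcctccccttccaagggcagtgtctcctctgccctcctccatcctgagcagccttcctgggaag
Gzmb: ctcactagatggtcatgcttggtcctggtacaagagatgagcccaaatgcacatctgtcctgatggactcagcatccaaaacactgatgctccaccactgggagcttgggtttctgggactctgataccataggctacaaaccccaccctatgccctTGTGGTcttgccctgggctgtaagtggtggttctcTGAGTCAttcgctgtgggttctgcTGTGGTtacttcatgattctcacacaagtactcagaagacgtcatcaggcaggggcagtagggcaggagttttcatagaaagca
Each of the 4 windows held 2 RUNX matches, and Gzmb alone held an AP-1 match. Over all 27025 mouse promoters of the table, 16.9% held the RUNX letters and 7.93% the AP-1 letters. The windows of Gzmc, Gzmd and Gzmf share 73.5% to 82.7% of their aligned bases, so their matches are not independent of each other. RUNX matches also stood in the windows of genes that did not pass, 2 in Gzme, 2 in Ncr1 and 1 in Prf1. No base was shared by a match to both motifs. Gzmd and Gzme share 90.0% of their transcript bases and Gzmd and Gzmf 82.9%, so the authors' counting may have split reads between them.

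Gzmd had 51.7 CPM (2 UMIs) and 81.8 CPM (10 UMIs) in treated NK cells, against 2059 CPM (48 UMIs) in untreated NK cells. Gzmf had 25.8 CPM (1 UMI) and 286 CPM (35 UMIs) in treated NK cells, against 4203 CPM (98 UMIs) in untreated NK cells. Both treated tumours lay far below the untreated tumour, and the log2 changes were -4.78 ± 0.59 for Gzmd (SE, edgeR adjusted p = 2.1e-12) and -4.40 ± 0.53 for Gzmf (edgeR adjusted p = 4.88e-12). Gzmc had 569 and 1268 CPM in treated NK cells, against 3689 CPM in untreated NK cells, a log2 change of -1.94 ± 0.52 (edgeR adjusted p = 0.023). Without pool 2 Gzmd no longer passed (edgeR adjusted p = 0.369), and without pool 1, 2 or 4 neither did Gzmc (0.0536, 0.0541 and 0.114). DESeq2 gave an adjusted p of 9.88e-07 for Gzmd, 0.949 for Gzmf and 0.134 for Gzmc. Gzme, tested on 2 and 3 UMIs in treated and 11 UMIs in untreated NK cells, gave -3.75 ± 2.45 and did not pass (edgeR adjusted p = 0.607).

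Treated NK cells with any UMI of Gzmc, Gzmd, Gzme or Gzmf numbered 8 of 28 and 49 of 128. Among untreated NK cells they numbered 22 of 41. At least 3 such UMIs were found in 3 of 28 and 24 of 128 treated NK cells (10.7% and 18.8%). The same held for 16 of 41 untreated NK cells (39.0%, exact 95% interval 24.2 to 55.5). After thinning to 300 UMIs the numbers were 0 of 27 and 8 of 122 treated cells (0% and 6.56%) and 10 of 35 untreated cells (28.6%). The cut at 3 UMIs is a range and not a type: 1 and 14 treated and 5 untreated NK cells had 2 or 3 such UMIs. Thinning left out 1 and 6 treated and 6 untreated cells. All 4 untreated libraries held such UMIs, with 23 to 76 from 8 to 16 NK cells each, against 3 to 77 from 5 to 37 NK cells in the treated libraries. In the untreated tumour 1 cell held 67 of the 243 UMIs. By gene, 3 cells held 39 of 48 UMIs for Gzmd, 74 of 98 for Gzmf and 37 of 86 for Gzmc. An untreated library of 9 NK cells had no Gzmf UMI, while a library of anti-CD40 tumour 2 had 643 CPM, so the libraries overlapped for Gzmf. The other untreated libraries had 2588 to 8812 CPM of Gzmf. For Gzmd the same untreated library had 430 CPM (2 UMIs) and the same treated library 429 CPM (6 UMIs). With the top cell of each tumour left out, the edgeR adjusted p was 4.78e-14 for Gzmd, 9.19e-05 for Gzmf and 0.0199 for Gzmc; over all alternatives, DESeq2 included, the adjusted p ran from 1.24e-15 to 0.418 for Gzmd, from 5.33e-13 to 0.949 for Gzmf and from 0.00164 to 0.844 for Gzmc. Among T cells, 0 of 48 and 2 of 135 treated cells and 0 of 150 untreated cells had at least 3.

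Untreated NK cells with at least 3 of these UMIs had less Gzma than the other untreated NK cells, 1608 CPM over 16 cells against 7356 CPM over 25 cells. In treated tumours the corresponding levels were 9726 against 12822 CPM in anti-CD40 tumour 1 and 6107 against 7021 CPM in anti-CD40 tumour 2. For Gzmb the levels were 6124 against 6456.5 CPM in anti-CD40 tumour 1, 6201 against 3947 CPM in anti-CD40 tumour 2 and 3135 against 3126 CPM in the untreated tumour. For Prf1 they were 360.2 (2 UMIs in 3 cells) against 2142 CPM in anti-CD40 tumour 1, 2770.1 against 1747 CPM in anti-CD40 tumour 2 and 1045 against 736 CPM in the untreated tumour, so neither gene had 1 direction in all 3. These are descriptions of single tumours, with no test.

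**Figure D3:**
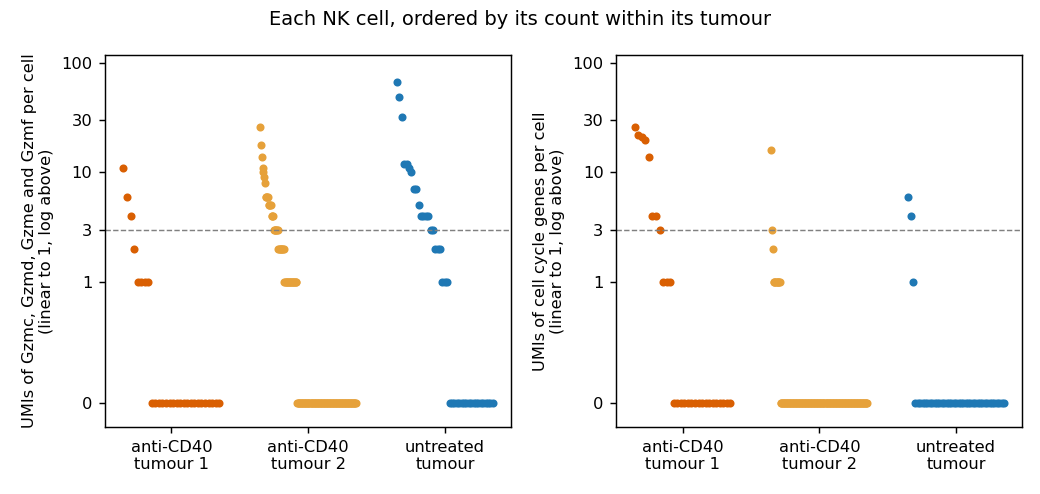
UMIs of Gzmc, Gzmd, Gzme and Gzmf together (left) and of 10 cell cycle genes (right) in each NK cell, by tumour; the vertical axis is linear to 1 and logarithmic above, cells are ordered by count, and the dashed line marks 3 UMIs. On the left the untreated tumour has 16 of 41 cells at or above the line and a top cell at 67; on the right anti-CD40 tumour 1 has 8 of 28.

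Other effectors did not pass the test. Gzma gave a log2 change of 1.14 ± 0.76, Gzmb 0.79 ± 0.70, Prf1 1.11 ± 0.60 and Nkg7 0.71 ± 0.64, all with both treated tumours above the untreated tumour (edgeR adjusted p from 0.531 to 0.737). Of the 18 genes listed for cytotoxic granules, 13 were tested, 3 fell (against 0.882% of all genes tested), none rose, and the median was 0.24. Of the 16 NK identity genes, 14 were tested and none passed, with no gene at an unadjusted p under 0.05 and a median of 0.18. Of 20 measured Ly49 and lectin-like receptor genes, 11 were tested and none passed, with no gene at an unadjusted p under 0.05. DESeq2 called none of these but Gzmd. Few receptor genes reached the level for a test: 4 of 17 measured activating receptor and adaptor genes and 1 of 10 inhibitory receptor genes, none of which passed or had an unadjusted p under 0.05.

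The other genes that fell were Ifitm2, Lgals3, S100a11 and Ptms. Ifitm2, an interferon-induced membrane protein gene, had 25.8 and 81.8 CPM in treated and 815 CPM in untreated NK cells (-3.62 ± 0.75; edgeR adjusted p = 0.000449). Lgals3 (galectin-3) had 336 and 115 CPM in treated and 986 CPM in untreated NK cells (-2.36 ± 0.55; edgeR adjusted p = 0.00352). S100a11, a calcium-binding protein gene, had 517 and 319 CPM in treated and 1415 CPM in untreated NK cells (-1.84 ± 0.52; edgeR adjusted p = 0.0304). In all 3 genes both treated tumours lay below the untreated tumour. They are also transcribed in monocytes, macrophages and dendritic cells, where Lgals3 reached 2296 and 2996 CPM in treated and 2207 CPM in untreated tumours, and the macrophage markers given above were likewise lower in treated NK cells. Of 20 listed myeloid and neutrophil genes, 10 were tested in NK cells and none passed, with 3 at an unadjusted p under 0.05, a median of -2.56 and 9 lower in both treated tumours, as were 36% of all genes tested. In T cells of the same tumours 17 genes of this list were tested, with a median of -2.375. H2-Eb1 and H2-Aa, MHC class II genes, were lower in both treated tumours without passing in NK cells. H2-Eb1 had 0 and 16.4 CPM in treated and 729 CPM in untreated NK cells, and H2-Aa 0 and 32.7 CPM against 686 CPM. T cells had 139 and 46.7 CPM of H2-Eb1 in treated tumours against 1385 CPM, and 162 and 65.4 CPM of H2-Aa against 1110 CPM. The part of macrophage RNA in the falls in NK cells was not tested. Without cells that carried at least 3 UMIs of a second type's markers, Trbc1 and Trbc2 not counted, the edgeR adjusted p was 0.000329 for Ifitm2, 0.00183 for Lgals3 and 0.0204 for S100a11, and with Trbc1 and Trbc2 counted it was 0.0305, 0.0599 and 0.101. Without the cell richest in late granzymes in each tumour, Ifitm2 and Lgals3 no longer passed (edgeR adjusted p = 0.415 and 0.0842). Over all alternatives the p ran from 1.75e-06 to 0.776 for Ifitm2, from 0.000657 to 0.74 for Lgals3 and from 0.0112 to 0.844 for S100a11. Ptms (parathymosin) had 233 and 196 CPM in treated and 772 CPM in untreated NK cells (-1.88 ± 0.56; edgeR adjusted p = 0.0451).

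Among the genes that rose, Klf2, a transcription factor of lymphocyte quiescence and trafficking, had 24 and 64 UMIs in treated NK cells (620.2 and 524 CPM) and none in untreated NK cells, so it was at least 4.25-fold higher, with 3 UMIs in the untreated tumour taken as the limit of a count of 0 (edgeR adjusted p = 0.00154). Bhlhe40, a transcription factor known to support interferon gamma production in T cells, had 33 and 99 UMIs in treated NK cells and 1 UMI in untreated NK cells, a ratio of 19.1-fold, with an exact 95% counting interval of 3.37 to 761 (edgeR adjusted p = 0.00493). Cxcr4, the receptor of CXCL12, had 19 and 111 UMIs in treated NK cells and 2 UMIs in untreated NK cells, a ratio of 9.42-fold, with an exact 95% counting interval of 2.56 to 78.6 (edgeR adjusted p = 0.0404). For these genes both treated tumours lay above the untreated tumour in CPM. Each bound written as at least, here and below, takes the treated UMIs as counted, without their counting error, and is not the lower end of an exact interval. None of the 8 genes that rose passed without pool 1, where the edgeR adjusted p ran from 0.0536 to 0.643, and none of the 5 of them tested without pool 2, where it ran from 0.0541 to 0.242.

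Cd69, an early activation marker that also retains lymphocytes in tissue, had 17 and 29 UMIs in treated NK cells and none in untreated NK cells, at least 2.22-fold higher (edgeR adjusted p = 0.0304). Cytip, which regulates lymphocyte adhesion, had 24 and 58 UMIs in treated NK cells and 1 in untreated NK cells, a ratio of 11.9-fold, with an exact 95% counting interval of 2.07 to 475 (edgeR adjusted p = 0.0303). Snu13, of the spliceosome, and Rbbp4, a histone chaperone, had 18 and 32 UMIs and 14 and 33 UMIs in treated NK cells and none in untreated NK cells, at least 2.41-fold and 2.27-fold higher (edgeR adjusted p = 0.023 and 0.0424). H3f3b, which encodes a replication-independent histone H3 variant, had 1550.5 and 1996 CPM in treated and 386 CPM in untreated NK cells (2.20 ± 0.66; edgeR adjusted p = 0.0481). Bhlhe40 and Rbbp4, and Gzmf above, overlap exons of a gene on the opposite strand, and no source used here says whether counting used strand.

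**Figure D4:**
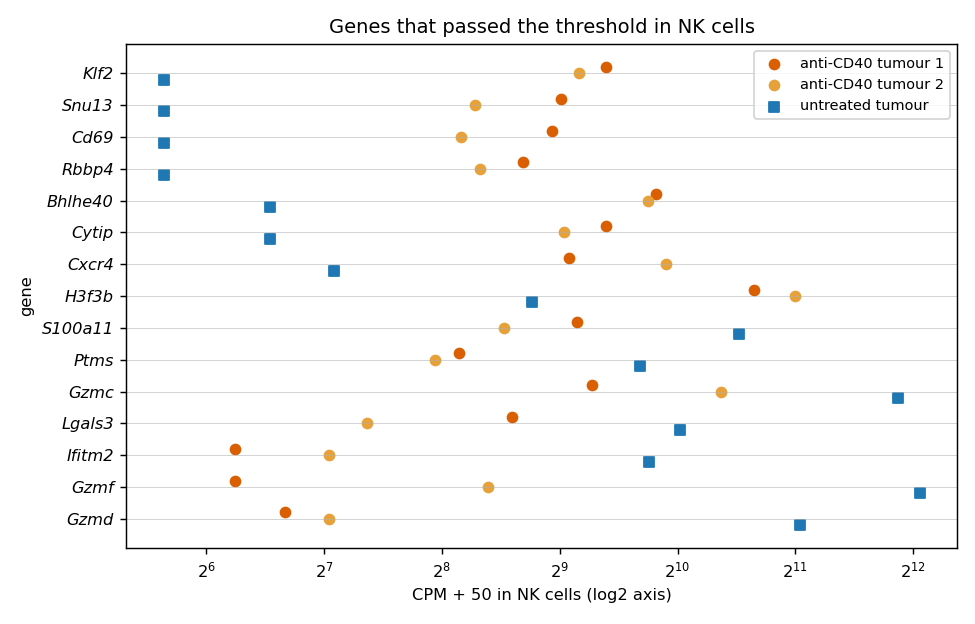
CPM plus 50 on a log2 axis in the NK cells of each tumour for the 15 genes that passed the threshold; circles are the treated tumours and squares the untreated tumour. The 8 genes at the top lie higher in both treated tumours and the 7 at the bottom lie lower in both; untreated NK cells had no UMI of Klf2, Snu13, Cd69 or Rbbp4.

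Ifng, the gene of interferon gamma, did not pass, and H2-Eb1 and Fam107b, which did not pass either, had smaller p. It had 31 and 25 UMIs in treated NK cells (801 and 205 CPM) and 1 UMI in untreated NK cells (42.9 CPM), a ratio of 8.11-fold, with an exact 95% counting interval of 1.4 to 326 (edgeR adjusted p = 0.099). Few cells carried it, and the interval covers counting error only: 3 cells held 19 of the 31 UMIs in anti-CD40 tumour 1 and 3 held 14 of the 25 in anti-CD40 tumour 2. Of the 12 death ligand, cytokine and chemokine genes listed, 5 were tested and none passed, with 1 at an unadjusted p under 0.05. Ccl4, a chemokine gene, had 1163 and 704 CPM in treated and 429 CPM in untreated NK cells (1.06 ± 0.58). It was unevenly spread: 1 library held 69 of the 86 UMIs of anti-CD40 tumour 2, at 1533 CPM, and the other 3 had 34.3 to 441 CPM. Libraries of anti-CD40 tumour 1 ran from 0 to 2867 CPM and those of the untreated tumour from 0 to 859.7 CPM, so the libraries overlapped. Ccl5, another chemokine gene, had 2352 and 777 CPM in treated and 2230.3 CPM in untreated NK cells, so the treated tumours lay on both sides of the untreated tumour.

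Receptors for the cytokines that drive NK cells were sparse except Il2rb, a receptor subunit for interleukin-2 and interleukin-15, at 2894 and 3346 CPM in treated and 2531 CPM in untreated NK cells (0.30 ± 0.64; edgeR adjusted p = 0.882). Of 18 such genes 3 were tested, and none passed, with 1 at an unadjusted p under 0.05. Il12rb1, a subunit of the interleukin-12 receptor, had 5 and 12 UMIs in treated NK cells and none in untreated NK cells, too few to test. Of 25 genes of activation and of the response to interleukin-12 or interleukin-18, 14 were tested, Cd69 rose, none fell, and the median was 0.97, or 0.63 with genes at 0 in the untreated tumour set at their bound. Tnfaip3, a feedback inhibitor of NF-kB, had 698 and 925 CPM in treated and 257 CPM in untreated NK cells (1.67 ± 0.68; edgeR adjusted p = 0.28).

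No interferon response gene on the lists passed. Of 23 interferon gamma response genes, 9 were tested and none passed, with a median of 0.13; H2-K1, an MHC class I heavy chain gene, had 5220 and 5916 CPM in treated and 5361 CPM in untreated NK cells. Of 34 type I interferon genes 2 were tested and none passed. Neither list had a gene at an unadjusted p under 0.05, and DESeq2 called none of their genes.

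Immediate early genes, which also respond to tissue digestion, stood higher in treated NK cells: of 21 listed, 18 were tested, 13 were higher in both treated tumours and none lower in both, where 39.9% of all genes tested were higher in both and 36% lower in both. Klf2 was the one member that rose, the median was 0.93, and the summed level was 14342 and 13632 CPM in treated and 7678 CPM in untreated NK cells. The same sum was 13326 and 16440 CPM in treated and 9339 CPM in untreated T cells. The part of dissociation in the rises of Klf2, Cd69 and Bhlhe40 was not tested.

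Cell cycle genes differed between the treated tumours. The summed level of the 22 measured proliferation genes was 8657 CPM in anti-CD40 tumour 1 and 2168 CPM in anti-CD40 tumour 2, against 2488 CPM in untreated NK cells, so the treated tumours lay on both sides of the untreated tumour. Stmn1 stood at 853 and 73.6 CPM in treated and 42.9 CPM in untreated NK cells. At least 3 UMIs of 10 cell cycle genes were found in 8 of 28 and 2 of 128 treated NK cells and in 2 of 41 untreated NK cells, and the 8 cells came from all 4 libraries of anti-CD40 tumour 1. After thinning to 300 UMIs the numbers were 1 of 27 and 0 of 122 treated and 1 of 35 untreated NK cells, too few to compare. Of 8 proliferation genes tested none passed, with 2 at an unadjusted p under 0.05.

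T cells of the same tumours gave 38 of 1865 genes past the threshold (2.04%), 18 higher (0.965%) and 20 lower (1.07%) in treated tumours. NK and T cells come from the same 3 tumours, so the comparisons are not independent and the T cell values are given only beside those of NK cells. Of the 15 NK genes, 12 were tested in T cells, and 11 of these had the same sign there, all but Snu13. Not all of the 11 passed in T cells, and they include small changes, such as Ptms (-0.35 ± 0.38) and Lgals3 (-0.50 ± 0.37). The share of same signs over all genes tested in both cell types was not taken, so the 11 have no background to be read against. Klf2 had 785 and 841 CPM in treated and 157 CPM in untreated T cells (2.37 ± 0.44; edgeR adjusted p = 1.19e-05). Cxcr4 had 439 and 692 CPM in treated and 131 CPM in untreated T cells (2.18 ± 0.47; edgeR adjusted p = 0.000392). In both genes the treated tumours lay above the untreated tumour in T cells. Bhlhe40 did so too, at 508 and 495 CPM in treated and 157 CPM in untreated T cells (1.66 ± 0.46). S100a11 was lower, as in NK cells, at 739 and 589 CPM in treated and 1293 CPM in untreated T cells (-1.01 ± 0.30). Cd69, by contrast, had 185 and 383 CPM in treated and 248 CPM in untreated T cells, with the untreated tumour between the treated ones (0.34 ± 0.44; edgeR adjusted p = 0.82). Snu13 had 139 and 149.5 CPM in treated and 287 CPM in untreated T cells (-0.97 ± 0.51; edgeR adjusted p = 0.462).

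**Figure D5:**
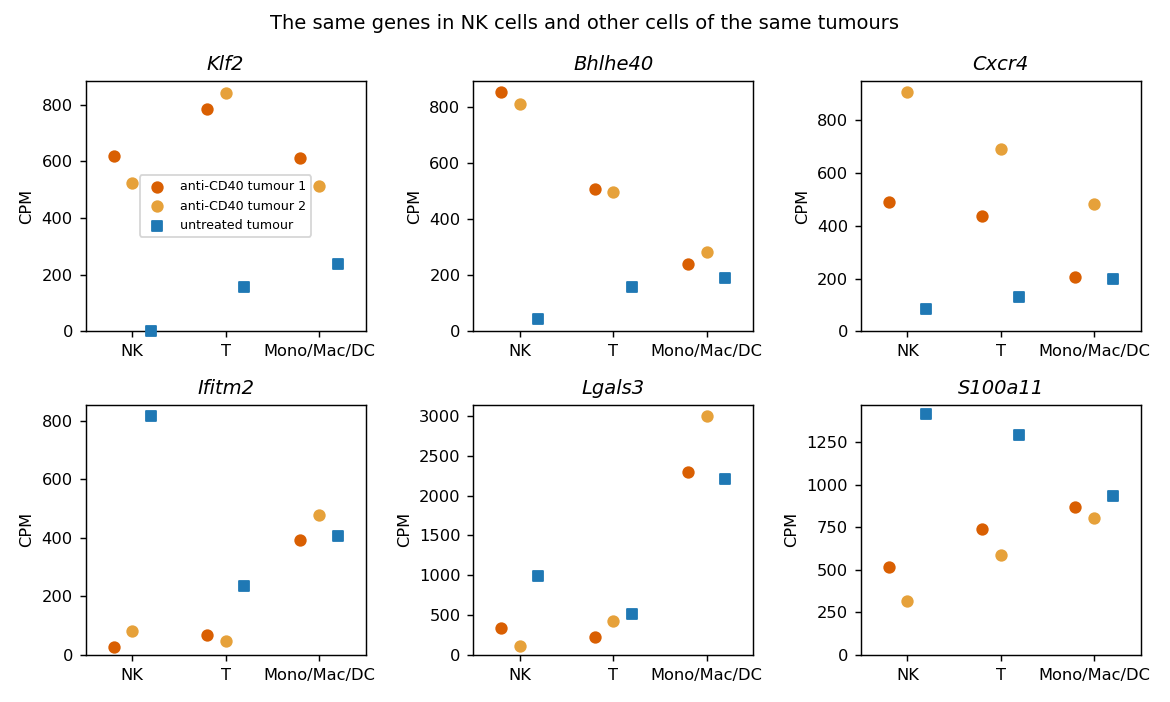
CPM of 6 genes that passed in NK cells, in NK cells, T cells and the class of monocytes, macrophages and dendritic cells of the same tumours; circles are treated tumours and squares the untreated tumour. Klf2, Bhlhe40 and Cxcr4 are higher in both treated tumours in each class shown. For Cxcr4 in the third class the levels are 205 and 481 CPM in treated and 200 CPM in untreated tumours. Lgals3 is highest in the third class, at 2296 and 2996 CPM in treated and 2207 CPM in untreated tumours.

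Whether NK and T cells differed in their response was tested as an interaction with the tumour as a block. None of 1867 genes passed with edgeR's quasi-likelihood test, with 64 at an unadjusted p under 0.05, and DESeq2 called none, with 9 at an unadjusted p under 0.05. The smallest p belonged to Ccl4, whose log2 change was 3.44 ± 0.68 higher in NK than in T cells (edgeR adjusted p = 0.176). Ccl4 had 45 and 86 UMIs in treated and 10 UMIs in untreated NK cells, against 6 and 14 UMIs in treated and 53 UMIs in untreated T cells. Single cells weighed heavily: 1 untreated T cell held 34 of the 53 UMIs, and in NK cells 3 cells held 38 of the 45 in anti-CD40 tumour 1 and 3 held 56 of the 86 in anti-CD40 tumour 2. Over the alternatives this p ran from 0.00172 to 1, and with plain library size Ccl4 and Gzmf passed (edgeR adjusted p = 0.0113 and 0.0158). Gzmf was next, with an adjusted p of 0.247 that ran from 0.00653 to 1, followed by Snu13, Ifitm1 and Ccl5 (edgeR adjusted p = 0.573 to 0.982). No gene's response can be called particular to NK cells from this test, nor does it show that the responses were alike.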

How the data were processed

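The authors deposited raw UMI counts, whole numbers for each cell and gene, in 4 tables, 1 per sequencing pool, and a table giving each cell's library, animal, condition and major cell type. The build GRCm38 and the tools bcl2fastq and STAR stand in the submitters' processing notes; no source used here gives versions, the counter, use of strand, the annotation, cell filters or any handling of doublets. NK cells were those the authors named so. All of them were kept, and doublets were not called; cells with at least 3 UMIs of another type's markers were left out as an alternative.

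Counts were added up within each tumour and cell type and tested with edgeR 4.0.16 in R 4.3.3 (TMM, filterByExpr, robust quasi-likelihood, Benjamini-Hochberg, threshold 0.05), with DESeq2 1.42.0 as an alternative. Each log2 change carries a standard error computed from its F statistic. The prior degrees of freedom were infinite for NK cells and 16.6 for the interaction. The fits were tested on simulated data. The labels' numbers give 1 untreated and 2 treated tumours; the interaction has the tumour as a block because NK and T cells of a tumour come from the same animal. Each sum's depth is that given for its tumour, and shares carry exact Clopper-Pearson intervals.

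The NK class, the 21 gene lists and the tests were chosen with earlier results of these data known. Genes named were those past the threshold, the 10 with the smallest p in each direction, and list members with at least 10 UMIs, from which examples were taken; for levels, the 25 with the highest ratio to any other class and the 12 with the largest ratio to T cells in each direction, with minima of 30 and 20 UMIs. Alternatives were other normalisations, filters on low counts, pools, cells and depths. Leaving out, per tumour, the cell with the most late granzyme UMIs and not counting Trbc1 and Trbc2 were chosen after seeing the data. Figures were drawn with matplotlib 3.10.9.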

Additional observations from a re-analysis of the deposited data

How the results depend on the processing

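All 15 genes that passed in NK cells kept their direction in every alternative in which they were tested, but the number that passed did not hold. It was 8 with all genes with at least 1 UMI tested (median log2 change 1.70), 1 with DESeq2, 2 without pool 1, 1 without pool 2, 6 without pool 4, 9 without cells carrying second-type markers and 1 with cells thinned to 300 UMIs. Of the 15, Gzmd and Gzmf passed without pool 1, Gzmf without pool 2 and with thinned cells, and Gzmd with DESeq2. Without pool 1 and without pool 2 the untreated tumour had 16 and 25 NK cells, fewer genes were tested (445 and 390), and the depth limits what can be called. Leaving out a treated tumour leaves 1 against 1, a value with no test.

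For the interaction of NK and T cells, 2 genes passed with plain library size, 2 with a filter of at least 20 UMIs, 1 without cells carrying second-type markers and 3 with no replicate block, that is with the tumour not kept as a block. Ccl4 was among them each time, Gzmf in all but the setting without second-type markers, and Snu13 with no replicate block; the cause was not tested. No paired analysis was possible for the treatment comparison within NK cells because there was 1 untreated tumour. It shared its pools with anti-CD40 tumour 1, and values within a pool carry no test. The NK share in anti-CD40 tumour 1 moved to 5.32% of cells other than neutrophils, and the level rule gave 12 genes with thinned cells.

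Reversals concerned genes that did not pass. Klre1, at 0.17 as reported, gave -0.65 without pool 1, -0.73 within pool 2 and -0.024 without cells carrying second-type markers, Trbc1 and Trbc2 not counted. Xcl1, at -0.22 as reported, gave 0.045 with all genes tested, 0.57 without the shallowest cells, 0.17 without anti-CD40 tumour 2 and 0.40 within pool 2, and kept its sign at -0.61 without anti-CD40 tumour 1. Ccl5, at -0.59 as reported, gave 0.87 without pool 1, 0.20 without the shallowest cells, 0.047 without anti-CD40 tumour 2 and 1.35 within pool 2, and kept its sign at -1.50 without anti-CD40 tumour 1.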

Other observations

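Adhesion and surface genes of NK cells gave a few values beyond the genes that passed. Itgb2, the common chain of the integrins LFA-1 and Mac-1, had 569 and 360 CPM in treated and 85.8 CPM in untreated NK cells (2.34 ± 0.86; edgeR adjusted p = 0.199). Both treated tumours lay above the untreated tumour, and the gene did not pass. Of 14 trafficking receptor genes 7 were tested, of which Cxcr4 rose and none fell. Thy1 went the other way, at 982 and 1072 CPM in treated and 2187 CPM in untreated NK cells (-1.09 ± 0.51; edgeR adjusted p = 0.377).

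Glycolysis and hypoxia genes did not pass in NK cells: of 17 listed, 10 were tested, with none at an unadjusted p under 0.05 with edgeR, none called by DESeq2 and a median log2 change of 0.42. Of the 10, 8 were higher in both treated tumours and none lower in both, where 39.9% of all genes tested were higher in both and 36% lower in both. Ldha, which encodes lactate dehydrogenase A, had 956 and 785 CPM in treated and 729 CPM in untreated NK cells. Vegfa, 1 of the other 2, had 103 and 295 CPM in treated and 129 CPM in untreated NK cells, with the untreated tumour between the treated ones. Ribosomal protein genes, 24 of 26 tested, gave a median of -0.35, with 15 lower in both treated tumours (against 36% of all genes tested) and none past the threshold, and mitochondrial transcripts, 11 of 13 tested, a median of 0.10; neither list had a gene at an unadjusted p under 0.05, and DESeq2 called none.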
